A study of Arabidopsis thaliana with 4 samples.

Results

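The features described here are the 1912 spots of the array whose identifiers run from plate TA01 to plate TA20. They were taken by plate, row and column number, and every one of them had a value on all 4 arrays. They are 1912 of the 21727 measured features of the series. The end of the block at TA20 was chosen by the share of high ratios per plate in these same replicates, so the ratios of these features are a description and carry no test of their height.

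The study profiled H3K9me2, histone H3 dimethylated at lysine 9, by chromatin immunoprecipitation and hybridisation to a spotted 2-colour array (ChIP-chip). Each array set immunoprecipitated DNA (IP) against input DNA of untreated whole seedlings of Arabidopsis thaliana, accession col-0, aged 11 days, from liquid half-strength MS medium at 22 °C with a 16 h photoperiod. There were 2 preparations, labelled I and II and called replicate 1 and replicate 2 here, each on 2 arrays with exchanged dyes. No genotype, treatment or time was compared, so IP against input is the only contrast and both sides share the same plants. The seedlings were taken whole, so each ratio is a mixture over all their cell types.

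In Arabidopsis, H3K9me2 is laid down mainly by the SUVH4 (KRYPTONITE), SUVH5 and SUVH6 methyltransferases, and the chromomethylase CMT3 reads it to methylate cytosines in the CHG context. The histone mark and the DNA methylation maintain each other over silent transposons and repeats. Dense H3K9me2 is known from the heterochromatin around the centromeres and from the heterochromatic knob of a chromosome arm, and short patches over single transposons are known from the gene-rich arms.

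The identifiers give a plate and a well but no gene or position, and 0 of the 1912 could be matched to a name in the RefSeq gene table of assembly TAIR10.1. The stretches below are therefore stretches of consecutive wells, and whether consecutive wells are neighbours in the genome is not stated in the sources used here. The paired arrays of a replicate carried the same deposited value at all 21727 measured features, so each replicate gives 1 value per feature and n = 2. Values are deposited log units, of unstated base, above or below the median of all measured features in that replicate. The direction of the ratio is not stated, so features are called high or low and not enriched or depleted. That H3K9me2 lies on the high side is thus the assumption behind the word island, which here means at least 3 consecutive high wells and nothing more. Separate cultures are not stated for the preparations, and the spread between the replicates may be technical.

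Most of the features in TA01 to TA20 had ratios near the array median, and a thin tail extended to high values. The middle of the distribution lay at -0.09 units, with quartiles at -0.30 and 0.23 units, against a median of -0.01 and quartiles of -0.26 and 0.75 units on the rest of the array. A mean of the replicates below 0.5 units was found for 1633 features (85.4%), a mean between 0.5 and 1.5 units for 191 (9.99%) and a mean of at least 1.5 units for 88 (4.6%). On the rest of the array 11% of the features had a mean between 0.5 and 1.5 units, and 17.6% reached 1.5 units. The highest feature stood at 3.42 units and the lowest at -1.20 units. The tail thus reached as far as the high peak of the remaining features but held a smaller share of the features, as the plot of both distributions shows.

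**Figure D1:**
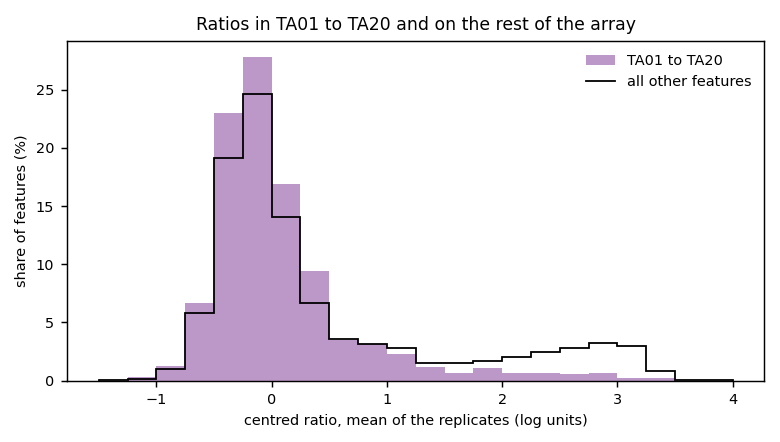
Histogram of the centred ratio (mean of the 2 replicates, log units, bins of 0.25) as a share of the features in percent. The filled area is TA01 to TA20 (1912 features) and the line is all other features (19815); both peak just below 0, and the second rise above 2 units seen in the line is absent from the filled area.

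A feature was called high-ratio when each replicate put it 1 unit or more above the median. In TA01 to TA20 this held for 137 features (7.17%), against 19.2% of all features on the array. On the low side, 3 of the 1912 features lay 1 unit or more below the median in each replicate, against 0.069% of all features, and these would be the high-ratio features if the sign of the ratio were turned. limma's moderated test over the whole array, at an adjusted p under 0.05, placed 319 of the 1912 features above the median (16.7%), against 28.9% of all features. It placed 264 below it (13.8%), against 11.7% of all features. Since the plates were delimited on these ratios, nothing is read from those differences. Without centring, 80 were placed above 0 and 1741 below, so the split of the calls is relative to the median.

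The high-ratio features were unevenly spread over the 20 plates. TA01 held 33 among its 96 features (34.4%) and TA19 held 22 among 95 (23.2%), together 40.1% of the total. TA09 had 12, TA16 had 11 and TA17 had 10. TA02, TA07, TA10 and TA11 had none, and their highest features reached 0.98, 0.996, 0.84 and 0.93 units in the mean of the replicates. From TA02 to TA07 there were 7 high-ratio features among 576 (1.22%). Leaving out TA01, the share over the remaining plates was 5.73% (104 of 1816).

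**Figure D2:**
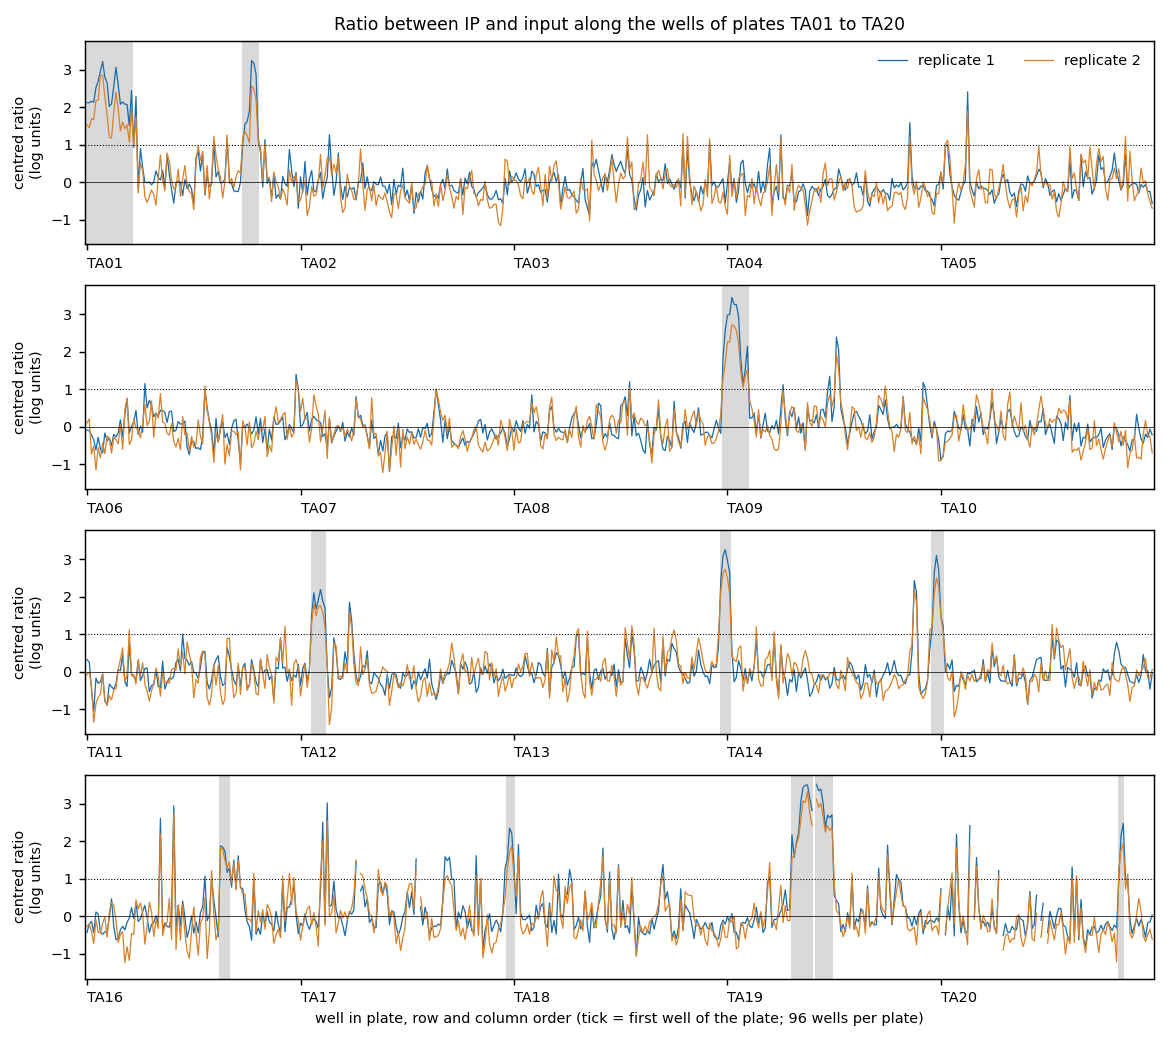
Centred ratio (log units, vertical axis) of every measured feature in plate, row and column order, 5 plates to a panel, for replicate 1 (blue) and replicate 2 (orange). Grey bands are the 11 islands, the dotted line is the limit of 1 unit, and gaps in the lines are the 8 unlisted wells; from TA02 to TA07 no band appears.

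Of the 137 high-ratio features, 89 (65%) stood in 11 islands, 8 in 4 pairs of adjacent wells and 40 alone (29.2%). Over the whole array 88% of the high-ratio features stood in islands and 8.18% alone. The islands had 3 to 21 wells, with a median of 7. They touched 12 of the 20 plates, and 8 of the 11 began in TA12 or a later plate. The stretch between one island and the next had a median of 126 wells. The longest such stretch, 688 wells, ran from the end of the second island in TA01 to the end of TA08, and the next longest had 283 wells. Of the 11 islands, 4 began in row H of one plate and ended in row A of the next.

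**Figure D3:**
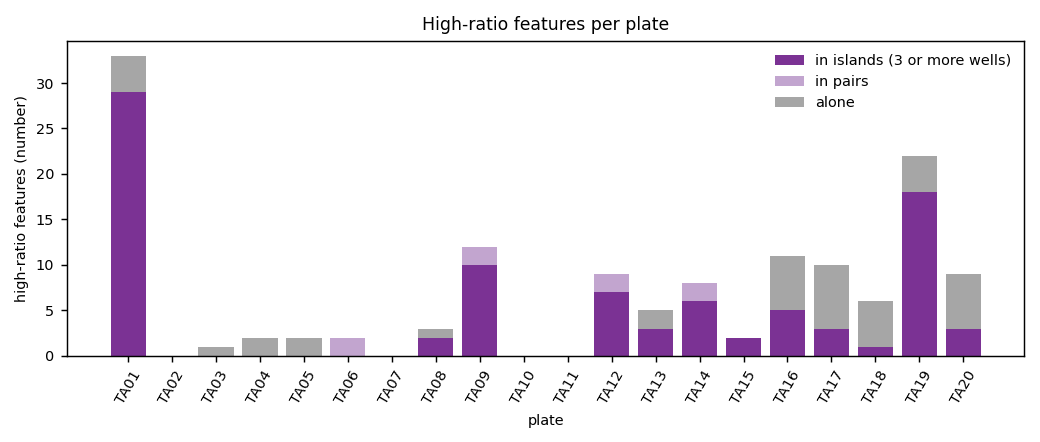
Number of high-ratio features per plate (stacked bars), divided into those in islands, in pairs and alone. TA01 and TA19 carry the tallest bars, with 29 of 33 and 18 of 22 in islands, while those in TA16, TA17, TA18 and TA20 consist largely of single wells.

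The longest island opened the plate series. It covered the 21 wells from TA01A01 to TA01B09, averaging 2.38 units in replicate 1 and 1.81 units in replicate 2 (2.09 ± 0.40, SD, n = 2). No TA well is listed before TA01A01, which already stood at 2.12 and 1.53 units, so its beginning was not observed. Its highest well was TA01A08, at 3.22 units in replicate 1 and 2.85 in replicate 2, and TA01B02 formed another peak at 3.06 and 2.40 units. Between them TA01A12 fell back to 2.08 and 1.18 units, so that replicate 2 came much nearer to the limit of 1 unit there than replicate 1. The lowest well, TA01B08, had 1.505 and 1.07 units, and the last, TA01B09, rose again to 2.44 and 1.93 units. The island ended at TA01B10, which had 0.92 and 0.998 units, and the well after that, TA01B11, was high again at 2.28 and 1.72 units. Counting it, the elevated stretch at TA01 had 23 wells.

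The second island of the same plate, TA01F11 to TA01G06, began 49 wells later and had 8 wells, at 2.07 units in replicate 1 and 1.64 in replicate 2 (1.85 ± 0.30). It was built of a shoulder and a summit. Its first 4 wells lay between 1.02 and 1.89 units in replicate 1, and the next 3, TA01G03 to TA01G05, lay between 2.88 and 3.24 units. In replicate 2 the same 3 wells lay between 2.21 and 2.56 units. The final well dropped to 1.18 and 1.05 units. In the mean of the replicates, TA01F09 and TA01F10 before the island lay at 0.03 and 0.12 units, and TA01G07 and TA01G08 after it at 0.86 and -0.05 units.

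TA08H11 to TA09A10 crossed a plate border and had 12 wells, at 2.49 and 1.93 units in replicates 1 and 2 (2.21 ± 0.40). It rose from TA08H10, at -0.17 and 0.35 units, to TA09A03, at 3.45 and 2.72 units, within 5 wells. The ratio then sank to 1.11 and 1.05 units at TA09A08 and rose once more to 2.15 and 1.53 units at the last well. In the mean of the replicates, TA08H09 and TA08H10 before the island lay at -0.07 and 0.09 units, and TA09A11 and TA09A12 after it at 0.46 and 0.37 units. Further along the plate, the pair TA09E02 and TA09E03 stood at 2.17 and 1.81 units in the mean of the replicates, with 0.67 and 0.56 units on either side.

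TA12A06 to TA12A12 differed in shape from the islands above. Its 7 wells averaged 1.85 units in replicate 1 and 1.55 in replicate 2 (1.70 ± 0.21), and over the wells the SD was 0.24 units, the smallest of the 11 islands. The highest well, TA12A10, reached 2.19 and 1.76 units. The wells beside the island were low, with -0.25 and -0.42 units at TA12A04 and 0.06 and 0.03 units at TA12A05 before it and 0.14 and 0.12 units at TA12B01 after it. The well after that, TA12B02, was among the lowest of the plates at -0.69 and -1.41 units. The pair TA12B11 and TA12B12, at 1.71 and 1.27 units in the mean of the replicates, followed in the same row.

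A pair of short islands lay across the next plate borders. TA13H10 to TA14A02 had only 5 wells but averaged 2.87 units in replicate 1 and 2.41 in replicate 2 (2.64 ± 0.33), with its summit at TA13H12 (3.25 and 2.73 units). Its lowest well still had 2.29 units in the mean of the replicates, and TA14A03, the next well, had 0.55 and 0.41 units. In the mean of the replicates, TA13H08 and TA13H09 before it lay at 0.17 and 0.85 units, and TA14A04 after it at 0.02 units. TA14H09 to TA15A02 had 6 wells at 2.04 and 1.76 units (1.90 ± 0.20), with its summit at TA14H11 (3.10 and 2.496 units). In contrast to the first it began and ended on wells near the limit, at 1.15 units at either end in the mean of the replicates. On that scale TA14H07 and TA14H08 before it lay at -0.23 and 0.86 units, and TA15A03 and TA15A04 after it at 0.16 and 0.02 units. The pair TA14H01 and TA14H02, at 2.31 and 1.98 units in the mean of the replicates, preceded it in the same row.

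TA16F01 to TA16F05 was the lowest island in the mean and in replicate 1, though 2 others were lower in replicate 2. Its replicates differed least, with 1.59 units in replicate 1 and 1.57 in replicate 2 (1.58 ± 0.01). It began abruptly. TA16E11 had -0.02 and -0.62 units, TA16E12 had -0.54 and -0.40 units, and TA16F01, the next well and the summit of the island, had 1.88 and 1.84 units. This step of 2.33 units in the mean of the replicates was the largest of the 19 island borders that could be measured. On the other side there was no sharp end. The wells TA16F06 to TA16F11 stayed between 0.73 and 1.62 units in replicate 1 and between 0.59 and 1.497 units in replicate 2, so that 11 wells in succession lay at least 0.5 units above the median in both replicates.

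The highest ratios of TA01 to TA20 were in TA19. TA19C06 to TA19D03 had 10 wells at 2.74 and 2.44 units in replicates 1 and 2 (2.59 ± 0.21), and TA19D05 to TA19D12 had 8 wells at 2.96 and 2.63 units (2.79 ± 0.23). The well between them, TA19D04, is not listed in the file. Joined across it, the 18 measured wells averaged 2.84 and 2.52 units (2.68 ± 0.22). In the mean of the replicates, TA19C04 and TA19C05 before the first island both lay at 0.03 units. The ratio climbed from TA19C07, at 1.57 and 1.63 units, to TA19D01, at 3.50 and 3.33 units. After the unlisted well it descended from TA19D05, at 3.52 and 3.13 units, to a level of 2.36 and 2.24 units at TA19D09. The last 3 wells before the end remained between 2.63 and 2.71 units in replicate 1 and between 2.29 and 2.42 units in replicate 2. TA19E01 then had 0.55 and 0.92 units, and TA19E02 had 0.42 and 0.16 units.

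The remaining 2 islands were shorter. TA17H10 to TA18A01 had 4 wells at 1.86 and 1.49 units (1.67 ± 0.26), and a further high well, TA18A03, stood 2 wells after it. TA20G09 to TA20G11 had 3 wells at 1.89 and 1.66 units (1.77 ± 0.16). The end of TA20 was low again. Its last well, TA20H12, had 0.03 and -0.61 units, and the first well of TA21 had 0.28 and 0.06 units, so no island of TA20 ran on into TA21.

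**Figure D4:**
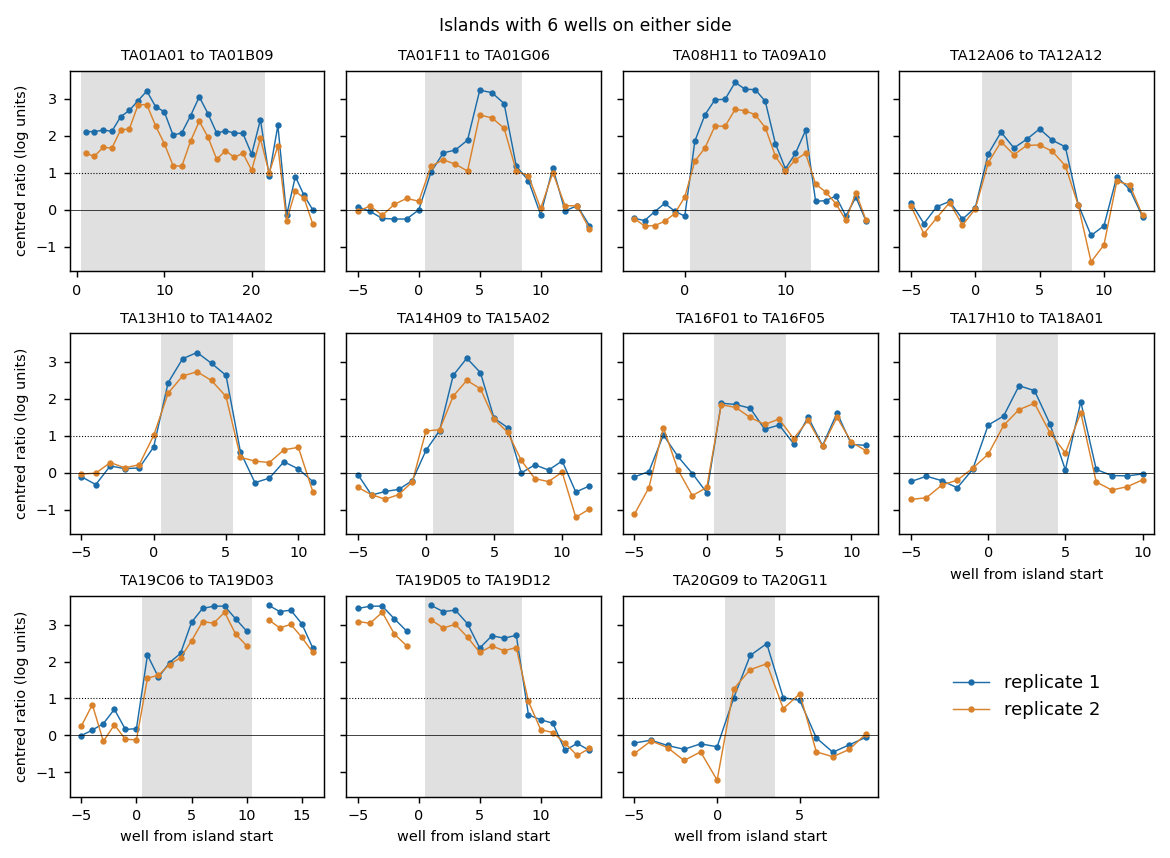
Centred ratio (log units) of each well in the 11 islands (grey band) and up to 6 listed wells on either side, against the well number counted from the island's start, for replicate 1 (blue) and replicate 2 (orange). Several islands are domes, TA12A06 to TA12A12 is flat, TA16F01 to TA16F05 starts with its highest well, and the line breaks at the unlisted well between the 2 islands of TA19.

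Islands were bordered by low or intermediate wells. At the 19 borders with a listed well outside, the first well inside exceeded the first well outside by a median of 1.34 units, with a range of 0.26 to 2.33 units. The step was at least 1 unit at 12 of the 19 borders. The first well outside had less than 0.5 units in the mean of the replicates at 11 of them. Over the 22 ends of the 11 islands, the outermost wells had a median of 1.70 units. The wells next to them inwards had 1.97 units and those after them 2.04 units. In short islands a well can count from both ends, and so at more than 1 place. The ends at TA01A01, TA19D03 and TA19D05 are included, though no listed well lies directly outside them. The wells 1, 2 and 3 places outside had medians of 0.46, 0.03 and 0.06 units, and those 2 and 3 places outside include wells of the neighbouring TA19 island. The rule makes the inside higher than the outside. It also favours a rapid fall, since 85.4% of the features in TA01 to TA20 lay below 0.5 units. The fall was largely complete within 2 wells. The summit lay at one end in 3 of the 11 islands, among them TA19D05, which stands beside the unlisted well. Neither was tested against the lengths of the islands.

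The median of the 40 high-ratio features that stood alone was 1.27 units in the mean of the replicates, against 2.05 units in islands, and 12 of the 40 reached 1.5 units, against 71 of the 89. A run rule by itself favours high values where neighbours are alike, so no test is given. In 24 of the 40 both neighbours were measured and under 0.5 units, and 4 of the 40 stood beside an unlisted well and may not have been alone. Of the 40, 28 were among the 472 features of TA16 to TA20, against 8 among the 1344 features of TA02 to TA15. Over the whole array 341 of 21727 features stood alone. The wells beside an unlisted well (TA17C02, TA17E05, TA20B02 and TA20C03) were all in TA16 to TA20. Others there were not isolated: TA17F07 stood between 1.29 and 1.25 units, and TA16F07 and TA16F09 lay in the elevated stretch from TA16F01 to TA16F11. The division at TA16 is a description and was not tested.

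A few single wells were as high as an island. TA16D04 stood at 2.94 units in replicate 1 and 2.73 in replicate 2 (2.84 ± 0.15), between neighbours at -0.28 and -0.64 units. TA17B01 stood at 3.03 and 2.53 units (2.78 ± 0.35), between neighbours at -0.21 and 0.14 units. TA16C10 stood at 2.61 and 2.20 units (2.41 ± 0.29), between neighbours at -0.26 and -0.44 units. The 3 wells are the highest of the 40, so their distance from their neighbours is a description. TA16D04 and TA17B01 were also the only features outside islands with a mean of at least 2.5 units, a level reached by 29 features in islands.

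The limit of 1 unit cut through a continuous range of values. Just inside it lay TA01G09, at 1.13 and 1.004 units in replicates 1 and 2, TA05A04, at 1.005 and 1.11 units, and TA06H12, at 1.01 and 1.01 units. Just outside lay TA17F06, at 1.59 and 0.998 units, TA03G05, at 0.985 and 1.29 units, and TA19G06, at 0.985 and 1.002 units. TA06H12 completed a pair with TA06H11 (1.40 and 1.24 units). In all, 152 features passed the limit in replicate 1 and 172 in replicate 2. The 15 that passed it in replicate 1 alone had a median of 0.98 units in the mean of the replicates, and the 35 that passed it in replicate 2 alone had a median of 0.96 units.

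Whether weakly elevated stretches without an island were rarer than islands depended on the limit. They were rarer with a limit of 0.5 units in both replicates, where 17 stretches of at least 3 wells were found, of which 11 held an island well. They were not rarer by limma's calls, which gave 25 runs, because the 11 islands can lie in no more than 11 of them. The counts that follow are for the limit of 0.5 units. Of the other 6, 2 held a pair of high-ratio wells and 1 a single high-ratio well. The 3 that held no high-ratio well were TA17C12 to TA17D04 (5 wells, 0.77 and 0.85 units in replicates 1 and 2), TA13F12 to TA13G02 (3 wells, 0.63 and 0.95 units) and TA19G05 to TA19G07 (3 wells, 1.01 and 0.75 units). Of the 191 features with a mean between 0.5 and 1.5 units, 18 were inside an island and 12 others lay within 3 wells of one, so most of the intermediate features were not flanks of islands. No such count is given for the rest of the array.

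Set against each other over the 1912 features, the replicates gave a Pearson's r of 0.879 and a Spearman's rho of 0.714. These coefficients are taken over features that share the arrays and resemble their neighbours, so they carry no p. Over the 1823 features outside islands, Pearson's r was 0.783. Over all 1912 features the SD of their difference was 0.33 units, against 0.35 units over the whole array, where Pearson's r was 0.953. In the plates TA67 to TA99 and TB00 to TB25 Pearson's r was 0.892 and 0.886. In islands replicate 2 was lower than replicate 1 in 83 of 89 wells, with a median difference, replicate 2 minus replicate 1, of -0.44 units. Among the 48 high-ratio features outside islands it was lower in 34, with a median difference of -0.20 units, and among the 1775 other features in 1015, with a median difference of -0.06 units. The medians of the island wells were 2.22 units in replicate 1 and 1.84 units in replicate 2. For all high-ratio features of the whole array the median difference was -0.44 units, against -0.34 units for those of TA01 to TA20. A lower replicate 2 was thus not particular to these islands.

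The islands did not all lose the same amount in replicate 2. The difference between the replicates was -0.57 units in TA01A01 to TA01B09 and in TA08H11 to TA09A10. It was -0.33 units in TA19D05 to TA19D12, although that island was higher in replicate 1, and -0.02 units in TA16F01 to TA16F05. The order of the islands was nonetheless much alike. TA19D05 to TA19D12 was first in both replicates, the 5 highest islands were the same 5, and TA12A06 to TA12A12 was the last but one in both. Neighbours in the order often lay closer than the replicates did: TA13H10 to TA14A02 stood above TA19C06 to TA19D03 in replicate 1, at 2.87 against 2.74 units, and below it in replicate 2, at 2.41 against 2.44 units.

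**Figure D5:**
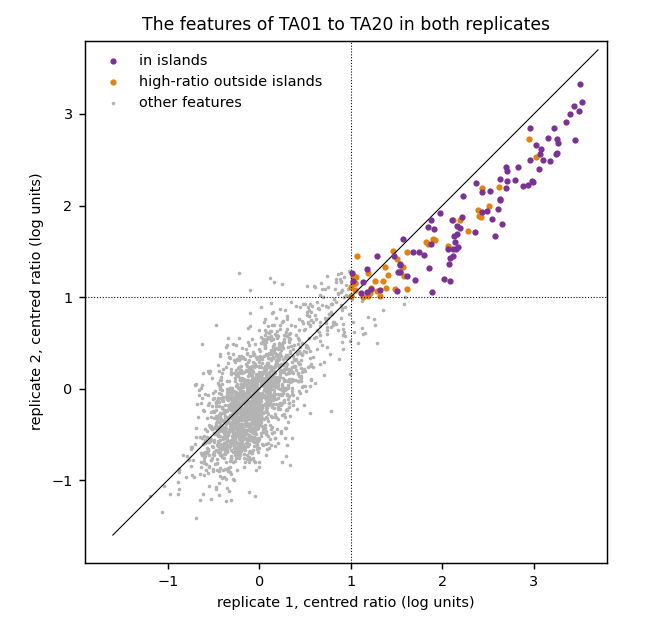
Each point is a feature of TA01 to TA20, with the centred ratio in replicate 1 on the horizontal and in replicate 2 on the vertical axis (log units). The diagonal marks equal values and the dotted lines the limit of 1 unit; the wells in islands (purple, 89) lie mostly under the diagonal, and high-ratio features outside islands (orange, 48) gather near the limit.

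The difference between the replicates reached 1 unit in 12 of the 1912 features, 6 of them higher in replicate 2. No share over the whole array is given beside this count. The largest was at TA03F01, with -0.22 units in replicate 1 and 1.26 in replicate 2. Next were the adjacent wells TA18B07, with -0.11 and 1.08 units, and TA18B08, with -0.47 and 0.70 units. None of these 3 was a high-ratio feature, because replicate 1 was below the median in each.

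Low ratios did not reach as far from the median as high ones. The 264 features that limma placed below the median were below it in both replicates, with medians of -0.43 units in replicate 1 and -0.68 in replicate 2. In all, 75 of them stood in runs of at least 3 wells. There were 22 such runs and none had more than 5 wells. By the same rule on limma's calls above the median, 158 of 319 features stood in 25 runs, the longest with 23 wells. The longest runs below the median were TA11A03 to TA11A07, at -0.46 and -0.78 units in replicates 1 and 2, and TA11A09 to TA11B01, at -0.57 and -0.71 units. They lay in a plate without high-ratio features. The lowest single features were TA11A04, at -1.06 and -1.35 units, TA07D05, at -1.19 and -1.17 units, and TA06F10, at -0.98 and -1.15 units. Calls below the median were most frequent in TA20 (28 of 91, 30.8%) and TA11 (25 of 96, 26%) and least frequent in TA19 (3 of 95, 3.16%) and TA01 (4 of 96, 4.17%). The number of calls below depended on the processing. In place of 264 it was 1741 without centring, 345 with quantile normalization and 96 with centring on the mode. When limma tested against a distance of 0.5 units it was 9. The runs below were counted only with the 264 calls.

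Likeness between wells faded over short distances. Pearson's r between a well and the next was 0.644 over 1903 pairs, between wells 5 apart 0.314, 10 apart 0.177 and 20 apart 0.024. Pairing replicate 1 of a well with replicate 2 of the next, which share no array, gave 0.582. With all island wells left out, r between a well and the next was 0.308 over 1806 pairs and between wells 5 apart 0.046. Islands are by their rule runs of like neighbours, so the lower values without them follow in part from leaving them out.

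High-ratio features were more frequent in row A of the plates, where 38 of 239 features passed the limit (15.9%), than in the other rows, with 3.77% to 7.11%. Without TA01 the share in row A was 11.5%, and 3.08% to 7.46% in the other rows. The medians of the rows ranged from -0.19 units in row H to -0.03 units in row A. By column the share lay between 5% and 9.38%. The islands with wells in row A were TA01A01 to TA01B09, TA12A06 to TA12A12 and the 4 that crossed a plate border. With 11 islands, these decide such a share, and the part of the plate layout in the results was not tested.

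TA67 to TA99 and TB00 to TB25 are other blocks of plates with scattered high-ratio features, and their values are set beside those of TA01 to TA20. High-ratio features made up 7.17% of the features in TA01 to TA20, 8.59% of 3166 features in TA67 to TA99 and 8.14% of 2495 features in TB00 to TB25. Per 1000 features there were 5.75 islands in TA01 to TA20, 7.9 in TA67 to TA99 and 8.82 in TB00 to TB25. The median island had 7 wells in TA01 to TA20 and 5 wells in each of the others, and the longest had 21, 17 and 18 wells in the same order. High-ratio features standing alone made up 29.2%, 31.6% and 17.2% of the high-ratio features in that order, and those in islands 65%, 57.4% and 63.1%. Intermediate features made up 9.99%, 15.4% and 12.2% of all features. Over the whole array the median island had 7 wells, as in TA01 to TA20, and intermediate features made up 10.9%. There were 11.6 islands per 1000 features on the whole array. All 3 blocks were delimited on these same ratios and each is 1 stretch of plates, so none of these differences was tested.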

How the data were processed

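H3K9me2 ChIP-chip ratios were available for 4 arrays, 2 dye-exchanged arrays for each of 2 preparations. The authors deposited 1 score per feature and array, a ratio of IP and input that takes values below 0 and is read here as a log ratio. No source used here gives its base, direction, background correction or normalization. Per the labels' protocols, Cy3 and Cy5 were attached by direct labelling of amplified DNA. Of 21800 listed features, 73 were empty. Paired arrays held identical values and were averaged to 1 value per replicate. The deposited medians were -1.39 in replicate 1 and -1.15 in replicate 2, and each replicate was centred on its own. Precision is limited by the number of arrays, and without intensities the signal over background is not known.

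Wells were ordered by plate, row (A to H) and column (1 to 12). Of 1920 wells in TA01 to TA20, 8 are not listed; an unlisted well ends an island. limma 3.58.1 (R 4.3.3) tested the mean of the centred replicates against 0 over all 21727 features, two-sided, with Benjamini-Hochberg adjustment at 0.05. It shared 1 SD of 0.26 units among all features, so a call amounts to a distance of at least 0.42 units from the median. Tables and figures used Python 3.11.15, NumPy 2.4.6, pandas 2.3.3, SciPy 1.17.1 and matplotlib 3.10.9.

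Named were all islands of at least 5 wells with their summits and the 2 wells on either side, the 3 highest single high-ratio wells, the 3 lowest features, the 3 features just inside and just outside the limit of 1 unit, and the 3 with the largest difference between replicates. Other wells, pairs, shorter islands and runs were named after their values were seen. The members, limits and rules were chosen with earlier results of these data known. Alternatives were other centring, quantile normalization, other limits, thresholds and run lengths, and single replicates.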

Additional observations from a re-analysis of the deposited data

How the results depend on the processing

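Without centring, limma placed 80 features above 0 and 1741 below, 38 were high-ratio features, and 7 islands held 31 of them, the longest with 6 wells; all 11 islands stayed above 0, at 0.31 to 1.53 units. Centring on the mode gave 484 calls above and 96 below. Under limma's treat against 0.5 units there were 168 calls above and 9 below, and the stricter adjusted p of 0.01 left 133 below. A limit of 1.5 units left 78 high-ratio features, 50 of them in islands, the longest with 10 wells; a limit of 0.5 units gave 250 and 17 islands. limma calls in place of the limit gave 25 islands with 158 features. The other settings stayed within 1.5 times the counts given. With a single replicate there were 152 to 172 high-ratio features, 11 to 12 islands, a longest of 21 wells and 91 to 94 features in islands, with no test. Bridging single unlisted wells, added after the data were seen, gave 10 islands. With the sign of every array turned, limma's counts were 264 above and 319 below. Without centring the levels of TA01G09 (-0.20), TA05A04 (-0.21), TA06H12 (-0.26), TA03G05 (-0.13), TA19G06 (-0.27), TA12B12 (-0.0022), TA03F01 (-0.75), TA18B07 (-0.78) and TA18B08 (-1.16) fell below 0, and in a single replicate TA03F01 (-0.22 to 1.26), TA18B07 (-0.11 to 1.08) and TA18B08 (-0.47 to 0.70) changed sign. No paired analysis was possible because the labels give a single group, whose ratios already set IP against input within a preparation. The cause of these shifts was not tested, beyond the stricter limits passing fewer features by construction.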
